A study of Mus musculus with 6 samples.

Results

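The Slc12 genes encode the cation-chloride cotransporters, membrane proteins that carry chloride together with sodium, potassium or both. Their RNA was read in 3 untreated mouse melanoma lines. The 6 genes described, Slc12a2, Slc12a4, Slc12a5, Slc12a7, Slc12a8 and Slc12a9, were taken from a table of 23951 genes by their symbols. The family was selected on the values of Slc12a8, which was at or near 0 in B16-F1 and well above it in B16-F1R2. The difference of Slc12a8 is therefore a description with no test, and so is every value of the family in that comparison. B16-F1 is the parental line, of low metastatic potential, and came from a cell repository. B16-F1R2 was derived from a lymph node metastasis, and B16-F1R2L from a lung metastasis of lymph node origin. Both came from another laboratory, so the source of the cells and the line cannot be told apart. The 3 lines were kept in the same serum-containing medium with no agent added, and each gave 2 libraries of polyadenylated RNA. Whether the 2 libraries of each line were separate cultures is not given in the sources used here, so p-values measure the spread between these libraries, which may be technical.

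Cotransporters of this family set the chloride content and the volume of a cell. Slc12a2 encodes NKCC1, which brings sodium, potassium and chloride into the cell. Slc12a4, Slc12a5 and Slc12a7 encode the potassium-chloride cotransporters KCC1, KCC2 and KCC4, which let potassium and chloride out, and KCC2 from Slc12a5 is best known from neurons. Slc12a9 encodes CIP1 and Slc12a8 encodes CCC9, the most distant members, and the cargo of CCC9 has been disputed between polyamines and nicotinamide mononucleotide. The kinases of the WNK family act through SPAK and OSR1, encoded by Stk39 and Oxsr1, and their phosphorylation activates NKCC1 and holds the KCCs inactive.

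Slc12a8 was measured at 0.0267 FPKM in B16-F1 replicate 1 and was listed at 0 in replicate 2. FPKM are fragments per kilobase of transcript and per 1000000 mapped fragments, so that levels can be set against each other between genes. The B16-F1R2 libraries held 16.1 and 17.1 FPKM and the B16-F1R2L libraries 19.8 and 18.8 FPKM. At the length of the longest Slc12a8 transcript and the depth estimated for B16-F1 replicate 1, a single read is worth about 0.024 FPKM. The B16-F1 signal therefore stood near the value of a single read, and no fold was computed against it. On the scale log2(FPKM + 0.1), B16-F1R2 was 7.21 ± 0.14 (SE, n = 2 libraries per line) above B16-F1 and B16-F1R2L was 7.43 ± 0.14 above it. These sizes depend on the constant added before the logarithm. With 1 FPKM added in place of 0.1 the B16-F1R2 difference was 4.12, and with 0.01 it was 9.76. B16-F1R2L differed from B16-F1R2 by 0.22 ± 0.14. In bulk RNA, fewer cells that express a gene and less RNA per cell cannot be told apart.

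In the NCBIM37 assembly (mm9), Slc12a8 lies on the plus strand at chr16:33517414-33664221. It has 7 annotated transcripts, and the longest has 13 exons and 3166 bases. Of its 4098 stretches of 50 bases, the length of a read, 37 (0.903%) also occur in transcripts of other protein-coding genes, and none in another Slc12 gene. No other annotated gene overlaps its exons. The RefSeq promoter table holds 3 Slc12a8 starts, each given as 250 bases before and 50 bases after the start. The first start of Slc12a8 is printed with that of Slc12a7, the most abundant gene of the family, because the former was almost without RNA in B16-F1 and the latter was high there. CG pairs are in capitals, the strand is plus for both, and both were placed by an exact match to NCBIM37, at chr16:33517164-33517463 and chr13:73900858-73901157.
Slc12a8 promoter: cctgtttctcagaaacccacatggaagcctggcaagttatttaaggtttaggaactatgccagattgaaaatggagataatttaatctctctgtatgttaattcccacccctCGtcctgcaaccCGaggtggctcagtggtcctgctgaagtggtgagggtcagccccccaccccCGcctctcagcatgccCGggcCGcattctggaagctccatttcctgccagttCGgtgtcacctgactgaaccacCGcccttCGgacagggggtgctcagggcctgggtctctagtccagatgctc
Slc12a7 promoter: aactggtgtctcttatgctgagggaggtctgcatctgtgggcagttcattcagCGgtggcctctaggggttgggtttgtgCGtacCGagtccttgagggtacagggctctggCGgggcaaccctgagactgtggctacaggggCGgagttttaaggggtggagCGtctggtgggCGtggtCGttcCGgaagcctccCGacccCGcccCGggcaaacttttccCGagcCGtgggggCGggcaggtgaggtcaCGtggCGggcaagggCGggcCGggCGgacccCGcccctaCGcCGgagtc

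The Slc12a8 window holds 8 CG pairs and 55.3% G and C, and 51.4% of the 32851 promoters of the table hold fewer CG pairs. Its other starts hold 3 and 6 CG pairs. The Slc12a7 window holds 23 CG pairs and 66.7% G and C, more CG pairs than 78.5% of all promoters. The median promoter has 7. The windows of Slc12a4, Slc12a5 and Slc12a9 resemble that of Slc12a7, with 19 to 21 CG pairs each. Of the motifs searched on both strands, GGGCGG occurs once in the Slc12a8 window and 6 times in that of Slc12a7, and 35.7% of all promoters hold it. CACGTG occurs in the Slc12a7 window and in 7.15% of all promoters, and TATAAA, found in 13.6%, occurs in neither window. GGGCGG and CACGTG themselves contain CG pairs, so these counts are not independent of the CG count. DNA methylation and factor binding were not analysed here.

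The other genes lie on other chromosomes. In NCBIM37, Slc12a4 is at chr8:108467490-108489974 on the minus strand, Slc12a5 at chr2:164786316-164825228 on the plus strand, Slc12a7 at chr13:73870542-73954191 on the plus strand and Slc12a9 at chr5:137755786-137774825 on the minus strand. None of the stretches of 50 bases in Slc12a2, Slc12a4, Slc12a5, Slc12a7 or Slc12a9 occurs in a transcript of another protein-coding gene.

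**Figure D1:**
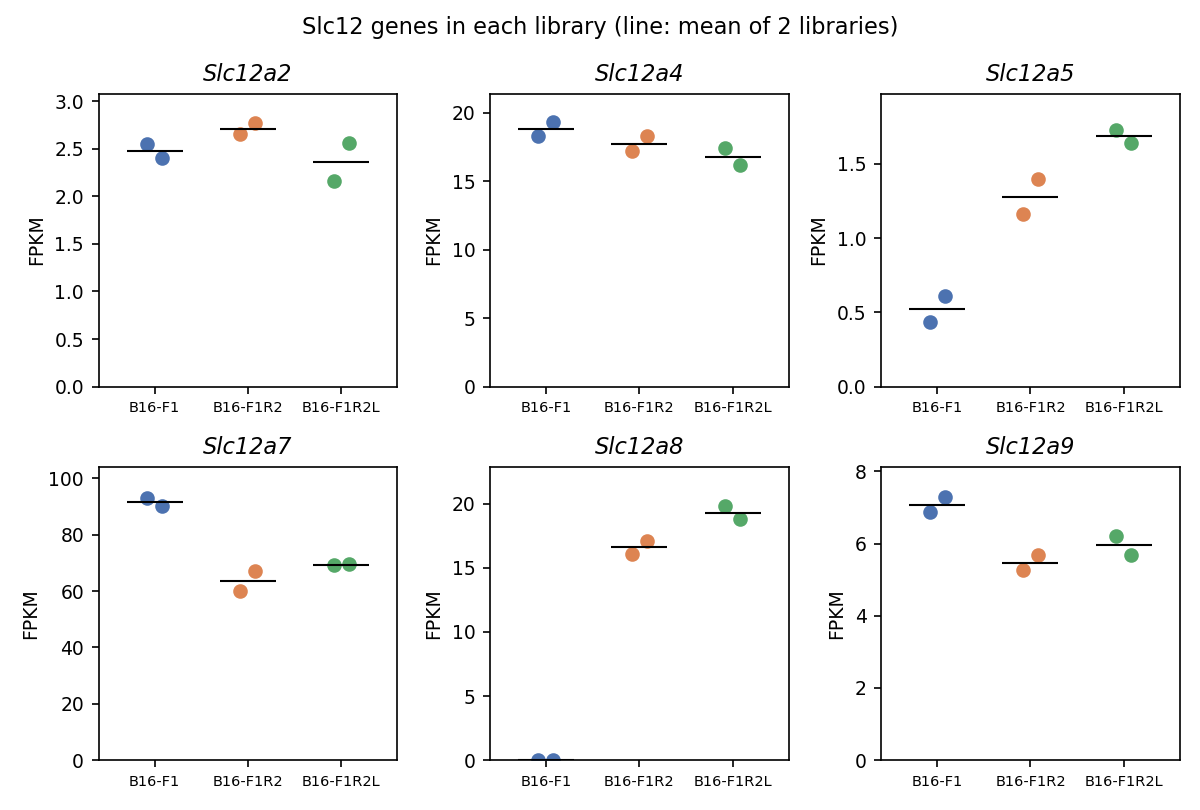
FPKM of the 6 Slc12 genes in each library (points) of the 3 lines, with the mean of the 2 libraries as a line and each axis starting at 0. Slc12a8 goes from at most 0.0267 FPKM in B16-F1 to 16.1 FPKM or more in the other lines, Slc12a7 is highest in B16-F1 at 90.3 and 92.9 FPKM, and Slc12a2 stays between 2.16 and 2.77 FPKM.

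The other genes of the family were expressed in all 3 lines, and their differences were far smaller than that of Slc12a8. All 6 genes passed the filter of at least 1 FPKM in at least 2 of the 6 libraries. Slc12a8 passed it only through B16-F1R2 and B16-F1R2L, and Slc12a5 likewise, since its B16-F1 values lay under 1 FPKM. Between B16-F1R2 and B16-F1, 3 of the 6 genes had both libraries above both of B16-F1 (Slc12a2, Slc12a5 and Slc12a8), 2 had both below (Slc12a7 and Slc12a9), and Slc12a4 overlapped. Over the 11379 genes that passed the filter, 40.3% had both libraries above and 39.7% both below, and nothing is read from the counts of the family in this comparison. Among all genes 28.2% passed the test as higher and 27.2% as lower there, which is the background for the gene lists further on.

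Among the exporters, Slc12a7 (KCC4) was the most abundant gene of the family in every library. It stood at 92.9 and 90.3 FPKM in libraries of B16-F1, 60.1 and 67.2 in those of B16-F1R2 and 69.1 and 69.5 in those of B16-F1R2L. Both metastatic variants lay below the parental line without overlap. The log2 difference from B16-F1 was -0.53 ± 0.06 (SE) for B16-F1R2. In B16-F1R2L, Slc12a7 fell by 0.40 ± 0.06 on the log2 scale (95% interval -0.55 to -0.26, adjusted p = 0.0017, limma with Benjamini-Hochberg adjustment over all genes tested). The call held with each library left out in turn, with adjusted p between 0.0011 and 0.017.

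Slc12a5, the KCC2 gene, was the lowest of the 6 genes in B16-F1R2 and B16-F1R2L. Its FPKM were 0.436 and 0.609 in libraries of B16-F1, 1.16 and 1.40 in those of B16-F1R2 and 1.73 and 1.64 in those of B16-F1R2L. The lines did not overlap, with B16-F1 lowest and B16-F1R2L highest. The log2 difference from B16-F1 was 1.16 ± 0.21 (SE) in B16-F1R2 and 1.53 ± 0.21 in B16-F1R2L (95% interval 1.03 to 2.03, adjusted p = 0.0012, limma). Since Slc12a5 passed the filter only through the variants, where it was higher, that p is conditional on the filter. Without a filter, over the 16483 genes above 0 in any library, the adjusted p was 0.004. At so low a level the size depends on the added constant, and with 1 FPKM added the differences were 0.58 in B16-F1R2 and 0.82 in B16-F1R2L (adjusted p = 0.00087 for the second). Under quantile scaling they were 0.29 and 0.52, and the second missed the threshold (adjusted p = 0.065). B16-F1R2L and B16-F1R2 differed by 0.38 ± 0.21 (95% interval -0.12 to 0.88, adjusted p = 0.23), so a change of this size could not be told from the spread. The exons of Slc12a5 overlap a gene model on the same strand, Gm11459, and reads from the shared part cannot be assigned with certainty.

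Slc12a4 (KCC1) was the second gene of the family in B16-F1 and B16-F1R2. It measured 18.3 and 19.3 FPKM in libraries of B16-F1, 17.2 and 18.3 in those of B16-F1R2 and 17.4 and 16.2 in those of B16-F1R2L. The mean was lowest in B16-F1R2L, which overlapped with B16-F1R2, and the log2 difference of B16-F1R2L from B16-F1 was -0.16 ± 0.06 (95% interval -0.32 to -0.01), which missed the threshold after adjustment (adjusted p = 0.07, limma). With libraries scaled by median ratios it was -0.19 and passed (adjusted p = 0.048). The exons of Slc12a4 overlap a gene model on the opposite strand, Gm16156, and whether the stranded reads were counted by strand is not given in the sources used here. The summed level of these 3 exporters was 112 and 110 FPKM in libraries of B16-F1, 78.5 and 86.9 in those of B16-F1R2 and 88.2 and 87.3 in those of B16-F1R2L, with most of it from Slc12a7.

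Slc12a2, the gene of the importer NKCC1, had low and similar levels in the 3 lines. It was at 2.55 and 2.40 FPKM in libraries of B16-F1, 2.65 and 2.77 in those of B16-F1R2 and 2.16 and 2.56 in those of B16-F1R2L. B16-F1R2L had the lowest library and overlapped with B16-F1. Its log2 difference was -0.07 ± 0.12 from B16-F1 (95% interval -0.37 to 0.24, adjusted p = 0.68, limma) and -0.20 ± 0.12 from B16-F1R2 (95% interval -0.50 to 0.11, adjusted p = 0.29). Under quantile scaling the first difference was -0.49 and passed the threshold (adjusted p = 0.014), so this result depends on the scaling. The difference of B16-F1R2 from B16-F1, 0.13 ± 0.12, was -0.10 under quantile scaling. The ratio of the exporter sum to Slc12a2 was 43.8 and 46.0 in libraries of B16-F1, 29.6 and 31.3 in those of B16-F1R2 and 40.8 and 34.0 in those of B16-F1R2L. B16-F1R2 thus had the lowest ratios of RNA levels, and the 2 libraries of B16-F1R2L lay apart from each other.

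Slc12a9, whose product CIP1 was first described as a partner of NKCC1, measured 6.86 and 7.28 FPKM in libraries of B16-F1, 5.26 and 5.68 in those of B16-F1R2 and 6.21 and 5.69 in those of B16-F1R2L. Both variants lay below B16-F1 without overlap. The log2 difference was -0.37 ± 0.09 (SE) for B16-F1R2 and -0.25 ± 0.09 for B16-F1R2L (95% interval -0.45 to -0.04). The second passed the threshold narrowly (adjusted p = 0.048, limma), and it was lost when any one of the 6 libraries was left out, with adjusted p between 0.053 and 0.2.

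Over the family, 1 of the 5 genes other than Slc12a8 passed the test as higher in B16-F1R2L relative to B16-F1 (Slc12a5) and 2 as lower (Slc12a7 and Slc12a9). The filter itself favoured the first, so nothing is read from that count. Among all genes tested 29.5% were called higher and 27.1% lower. The median log2 difference of the 6 genes was -0.11, against 0.017 over all genes. Between B16-F1R2L and B16-F1R2 none of the 5 genes passed (limma), and none had an unadjusted p under 0.05, against 12.1% of all genes called higher and 10.5% called lower. These were 1378 and 1190 genes, and with every library scaled to the same sum they were 2079 and 489. In that comparison 4 of the 6 genes had both libraries above, 1 below and 1 overlapped, while 35.9% of all genes had both libraries above and 29.2% both below. The comparisons of B16-F1R2 and of B16-F1R2L with B16-F1 share the same 2 B16-F1 libraries and are therefore not independent of each other.

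**Figure D2:**
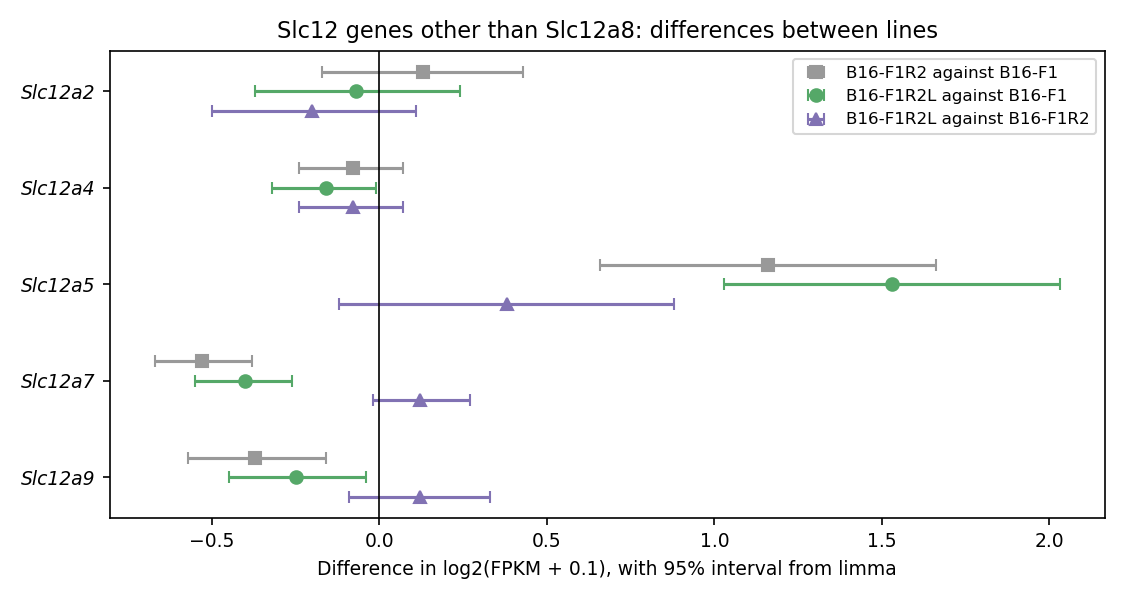
Differences in log2(FPKM + 0.1) of the 5 Slc12 genes other than Slc12a8 for the 3 comparisons of lines, with 95% intervals from limma as bars. The intervals of Slc12a7 (-0.55 to -0.26) and Slc12a5 (1.03 to 2.03) for B16-F1R2L against B16-F1 do not reach 0, those of Slc12a4 and Slc12a9 end near it at -0.01 and -0.04, and all 5 intervals between B16-F1R2L and B16-F1R2 include it.

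The makeup of the family followed from these levels. Slc12a7 made up 76.8% and 75.3% of the summed FPKM of the 6 genes in B16-F1, against 58.6% and 59.8% in the lymph node variant and 59.4% and 60.7% in the lung variant. Slc12a8 took 15.7% and 15.2% of the sum in B16-F1R2, and 17.0% and 16.5% of that of B16-F1R2L. The share of Slc12a4 lay between 14.1% and 16.8% in all libraries. The sum itself was 121 and 120 FPKM in libraries of B16-F1, 102 and 113 in those of B16-F1R2 and 116 and 114 in those of B16-F1R2L. These shares are ratios of RNA levels per transcript length and not of protein.

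In B16-F1 the levels ran from Slc12a7 over Slc12a4, Slc12a9 and Slc12a2 to Slc12a5, with Slc12a8 last of those with any signal. In B16-F1R2, Slc12a8 came after Slc12a7 and Slc12a4, and in B16-F1R2L it came second, before Slc12a4. In each line the ranges of neighbours in this order did not overlap, except at the bottom in B16-F1, where Slc12a8 overlapped Slc12a1. Among all 23951 genes of the table, Slc12a8 exceeded 40% in B16-F1, 79.4% in the lymph node variant and 81.3% in the lung variant. Its log2 difference ranked 15 from the top of the 11379 genes tested in the comparisons of B16-F1R2 and of B16-F1R2L with B16-F1, and 2555 between the variants. The genes of the kidney cotransporters NKCC2 and NCC were low throughout. Slc12a1, which encodes NKCC2, was listed at 0 in B16-F1, while the B16-F1R2 libraries held 0.286 and 0.284 FPKM and those of B16-F1R2L 0.342 and 0.421 FPKM. Slc12a3, which encodes NCC, was listed at 0 in every library but B16-F1R2L replicate 1, at 0.0279 FPKM.

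The genes with the profile most like that of Slc12a8 were found by the root mean square distance of log2 values, each gene centred on its own mean, over the 6 libraries and among 11378 other genes. They were Defb25 at 0.11, Acsbg1 at 0.15, Fitm1 at 0.16 and As3mt at 0.18. Defb25 encodes a beta-defensin, Acsbg1 a long-chain fatty acyl-CoA synthetase, Fitm1 a protein of lipid droplet formation and As3mt an arsenic methyltransferase. The table listed Defb25, Fitm1 and As3mt at 0 in B16-F1 replicates 1 and 2. In B16-F1R2 they stood at 14.0 and 14.1, at 12.2 and 12.0, and at 19.2 and 18.9 FPKM, and in B16-F1R2L at 17.1 and 15.2, at 15.5 and 14.0, and at 19.8 and 18.9 FPKM. Acsbg1 was measurable in B16-F1, at 0.319 and 0.200 FPKM, and reached a higher level than Slc12a8, with 61.9 and 60.3 FPKM in B16-F1R2. These genes were chosen by the likeness itself, so their differences carry no test.

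**Figure D3:**
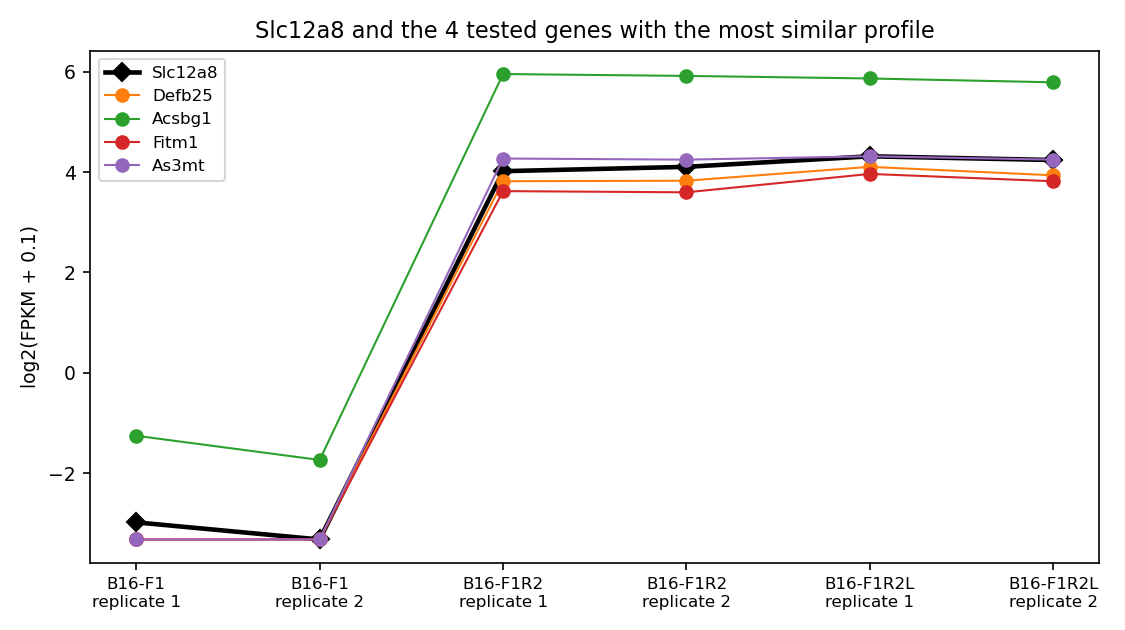
Level in log2(FPKM + 0.1) of Slc12a8 (black) and of the 4 tested genes with the most similar profile in each of the 6 libraries, with lines joining the libraries of a gene. All 5 genes are low in the B16-F1 libraries and high in the other 4, where As3mt at 18.9 to 19.8 FPKM runs closest to the level of Slc12a8.

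The 5 nearest tested genes on each side of Slc12a8 did not share its pattern of near absence in B16-F1. Zfp148, a zinc finger factor that ends 13.4 kb before Slc12a8, had 9.39 and 9.12 FPKM in B16-F1 and 7.68 and 7.98 FPKM in B16-F1R2. Its log2 difference of -0.24 ± 0.08 (adjusted p = 0.038, limma) was lost when any of the 4 libraries of these lines was left out, with adjusted p up to 0.15. Heg1, a membrane protein of endothelial junctions that starts 20.3 kb after it, rose from B16-F1, at 0.903 and 0.747 FPKM, to B16-F1R2, at 4.18 and 4.60 FPKM, a log2 difference of 2.28 ± 0.14 (adjusted p = 5e-05). Heg1 passed the filter only through the variants, and without a filter its adjusted p was 0.000477. In B16-F1R2L it was at 5.14 and 4.32 FPKM. Further away, 1700007L15Rik rose by 0.84 ± 0.12 (adjusted p = 0.0015), Itgb5, an integrin chain, by 0.37 ± 0.08 (adjusted p = 0.0075) and Umps, an enzyme of pyrimidine synthesis, by 0.39 ± 0.05 (adjusted p = 0.00095).

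Mylk, the myosin light chain kinase gene 1080 kb away, rose by 1.27 ± 0.07 (adjusted p = 3.8e-05, limma) between the same lines. Its level was 3.36 and 3.59 FPKM in libraries of B16-F1, 8.70 and 8.35 in those of B16-F1R2 and 9.85 and 9.44 in those of B16-F1R2L. Lmln, Osbpl11, Snx4 and Ccdc14 did not pass the test there, with log2 differences of 0.45, -0.03, -0.10 and 0.25. Of the 10 neighbours, 5 thus rose in B16-F1R2 with a call that held with each library left out. Over all genes tested 28.2% were called higher there, and 19.0% with a call that held in the same way. None of the 5 was at 0 in B16-F1.

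**Figure D4:**
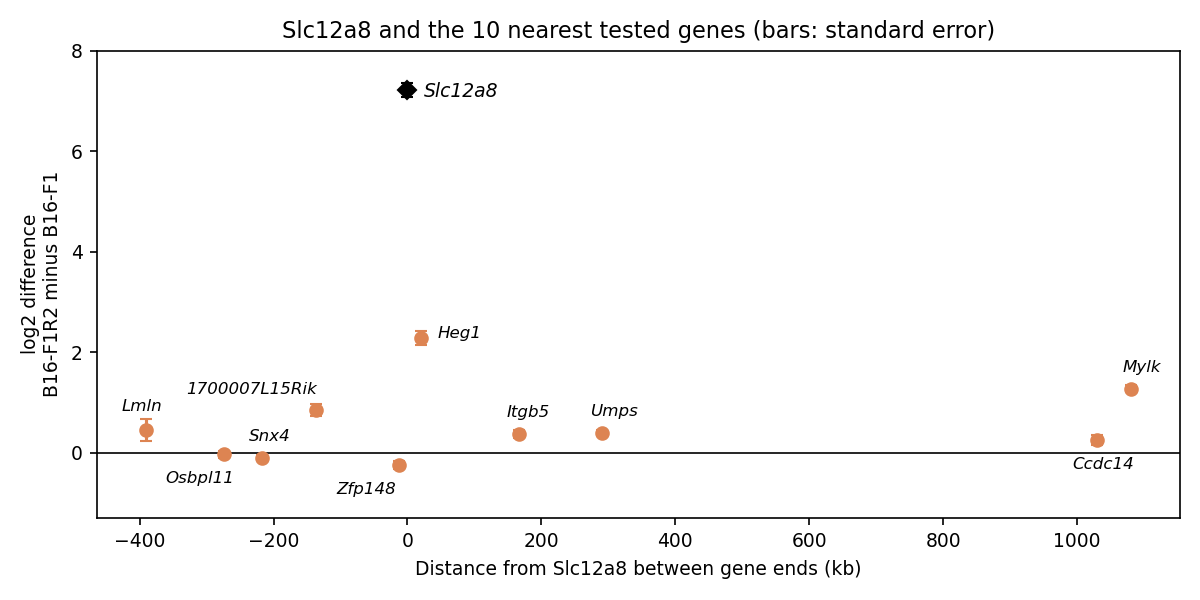
Difference in log2(FPKM + 0.1) between B16-F1R2 and B16-F1 for Slc12a8 (black, plotted at 0) and its 5 nearest tested genes on each side, against the distance between gene ends in kb. Bars are standard errors. Slc12a8 stands at 7.21, Heg1 at 2.28, Mylk at 1.27, and the other neighbours between -0.24 and 0.84.

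Genes around the cotransporters were taken from 6 lists of 108 genes, of which 72 passed the filter. Between B16-F1R2 and B16-F1, 24 of the 72 (33.3%) passed the test as higher and 20 (27.8%) as lower, near the shares of all genes given above. The median log2 difference was 0.05. In B16-F1R2L against B16-F1, 29 (40.3%) were higher and 12 (16.7%) lower, beside 29.5% and 27.1% of all genes. In B16-F1R2L against B16-F1R2, 19 (26.4%) were higher and 5 (6.94%) lower, beside 12.1% and 10.5% of all genes. Some of these counts changed with a single library left out. The counts of all genes changed as well, so nothing about the lists is read from this. The 20 lower genes became 12 without B16-F1 replicate 1 and 13 without B16-F1R2 replicate 1, and the 12 lower genes in B16-F1R2L became 7 without B16-F1 replicate 1. Between the variants, the 19 higher genes became 5 without B16-F1R2L replicate 2, 6 without B16-F1R2 replicate 1 and 11 without B16-F1R2 replicate 2. The 5 lower genes became 3 without B16-F1R2 replicate 1 and 8 without B16-F1R2L replicate 1. The genes named from each list are the called genes with the largest difference in each direction between B16-F1R2 and B16-F1 that did not overlap, and a few fixed genes.

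Among the regulators of the cotransporters, 4 of the 10 tested genes of the WNK, SPAK and OSR1 pathway were higher in B16-F1R2 relative to B16-F1, 3 lower and 3 not called. Wnk4, a kinase upstream of SPAK and OSR1, fell from B16-F1, at 10.2 and 11.4 FPKM, to B16-F1R2, at 6.07 and 6.21 FPKM, a log2 difference of -0.80 ± 0.09 (adjusted p = 0.00066, limma). It fell by 0.69 in B16-F1R2L (adjusted p = 0.0013). Cab39l, a scaffold protein that activates SPAK and OSR1, rose by 0.28 ± 0.05 in B16-F1R2 (adjusted p = 0.0034). Oxsr1 had 16.5 and 16.1 FPKM in B16-F1 against 15.2 and 15.7 FPKM in B16-F1R2 and was not called (adjusted p = 0.29). The calls of Wnk1 (-0.20), Cab39 (-0.20), Stk39 (0.17), Nedd4l (0.20) and Sgk1 (0.40) were lost without either B16-F1 library. Those of Wnk1, Cab39 and Sgk1 were also lost without B16-F1R2 replicate 1 and those of Stk39 and Nedd4l without B16-F1R2 replicate 2, and the highest adjusted p of the 5 genes in that order was 0.13, 0.064, 0.079, 0.087 and 0.074. Sgk1, a kinase that is itself regulated by salt and serum, was lower in B16-F1R2L relative to B16-F1R2, by a log2 difference of -0.80 (adjusted p = 0.0065).

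The sodium-potassium ATPase builds the gradients that drive the cotransporters, and the FXYD proteins attach to it. Of 7 tested genes of this list, 4 (57.1%) were higher in B16-F1R2 relative to B16-F1, 1 (14.3%) lower and 2 not called. Over all genes the shares were 28.2% and 27.2%. The median log2 difference of the list was 0.98, the highest of the lists. The count of higher genes includes Fxyd1, which passed the filter only through the variants. Fxyd1 was listed at 0 in B16-F1, while the B16-F1R2 libraries held 22.7 and 22.0 FPKM and those of B16-F1R2L 30.2 and 27.6 FPKM. Fxyd5 rose from B16-F1, at 3.72 and 2.84 FPKM, to B16-F1R2, at 11.6 and 12.2 FPKM, by 1.84 ± 0.13 on the log2 scale (adjusted p = 8.6e-05, limma). Atp1b3, the main beta subunit here, fell from 196 and 199 FPKM to 125 and 126 FPKM, a log2 difference of -0.65 ± 0.04 (adjusted p = 3.2e-05). Atp1b1, another beta subunit, was not called in either variant against B16-F1 (adjusted p = 0.37 and 0.96).

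The list of chloride and volume channels, which also holds exchangers of endosomes and lysosomes, went both ways. Of 18 tested genes, 4 (22.2%) were higher in B16-F1R2 relative to B16-F1, 7 (38.9%) lower and 7 not called. Over all genes the shares were 28.2% and 27.2%. Clcn2, a plasma membrane channel, rose by 1.10 ± 0.18 (adjusted p = 0.0024, limma) and Clcn5, an endosomal exchanger, by 0.62 ± 0.07 (adjusted p = 0.00055). Clcn2 passed the filter only through the variants, and without a filter its adjusted p was 0.00645. Its call was lost under quantile scaling (0.49, adjusted p = 0.068). Lrrc8c, a subunit of the volume-regulated anion channel, rose by 0.56 ± 0.08 (adjusted p = 0.0014). Clcn7, the lysosomal chloride-proton exchanger, fell from 29.0 and 27.2 FPKM to 13.2 and 12.7 FPKM, a log2 difference of -1.11 ± 0.08 (adjusted p = 7.4e-05). Clcn4-2 fell by 0.86 ± 0.07 (adjusted p = 0.00017) and Clic1 by 0.63 ± 0.06 (adjusted p = 0.00031). Lrrc8a, the obligatory subunit of the volume-regulated channel, had a log2 difference of -0.37 ± 0.08 (adjusted p = 0.009), which was lost without B16-F1 replicate 2 (adjusted p = 0.06) and without B16-F1R2 replicate 1 (adjusted p = 0.053).

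Of the exchangers of bicarbonate, chloride and protons, 14 genes were tested. In B16-F1R2 relative to B16-F1, 3 were higher (21.4%), 6 lower (42.9%) and 5 not called, beside 28.2% and 27.2% of all genes. The sodium-bicarbonate cotransporter genes Slc4a4 and Slc4a5 rose furthest. Slc4a4 had 1.13 and 0.965 FPKM in libraries of B16-F1, 5.02 and 6.22 in those of B16-F1R2 and 6.09 and 6.58 in those of B16-F1R2L, and its log2 difference in B16-F1R2 was 2.32 ± 0.14 (adjusted p = 4.1e-05, limma). Slc4a5 was at 0.0303 and 0.0316 FPKM in B16-F1 and at 2.02 and 2.59 FPKM in B16-F1R2, a log2 difference of 4.19 ± 0.19 (adjusted p = 1.3e-05) whose size depends on the added constant. Both genes passed the filter only through the variants, since Slc4a4 reached 1 FPKM in just 1 B16-F1 library. Without a filter the adjusted p of Slc4a5 was 0.00015 (limma), and Slc4a4 kept its call. Slc9a9, an endosomal sodium-proton exchanger, fell by 1.48 ± 0.19 (adjusted p = 0.00094). Slc26a11 fell by 0.55 ± 0.10 (adjusted p = 0.0045) and Slc4a8 by 0.50 ± 0.11 (adjusted p = 0.0081).

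**Figure D5:**
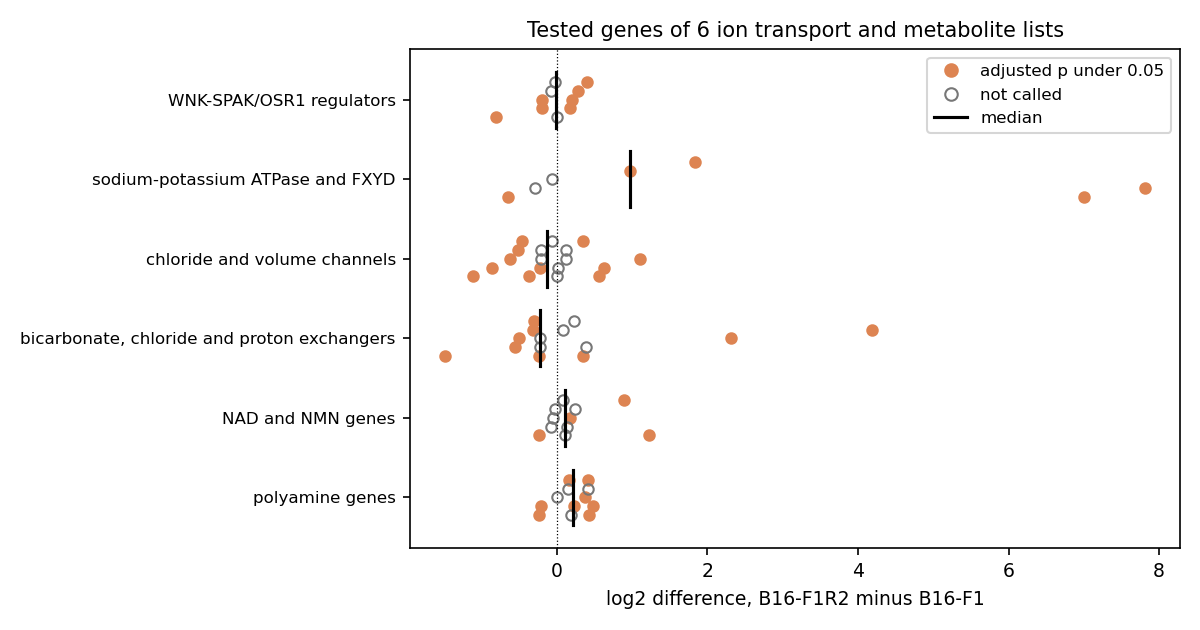
Difference in log2(FPKM + 0.1) between B16-F1R2 and B16-F1 for the 72 tested genes of the 6 lists, filled where the adjusted p was under 0.05 and open where it was not, with the median of each list as a bar. The medians lie between -0.22 for the exchangers and 0.98 for the sodium-potassium ATPase and FXYD genes, whose point furthest to the right is Fxyd1.

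The disputed cargoes of the Slc12a8 protein led to lists of NAD and polyamine genes. Of 11 tested genes of NAD and nicotinamide mononucleotide metabolism, 3 (27.3%) were higher in B16-F1R2 relative to B16-F1, 1 (9.09%) lower and 7 not called. Over all genes the shares were 28.2% and 27.2%. Nnmt, which methylates nicotinamide, had 8.35 and 7.11 FPKM in libraries of B16-F1, 17.1 and 19.1 in those of B16-F1R2 and 33.7 and 36.0 in those of B16-F1R2L. It rose by 1.22 ± 0.09 in B16-F1R2 (adjusted p = 0.00011, limma) and by a further 0.94 in B16-F1R2L against B16-F1R2 (adjusted p = 0.0038). Nampt, which makes nicotinamide mononucleotide, stood at 45.3 and 42.3 FPKM in B16-F1 against 37.2 and 37.1 FPKM in the lymph node variant, and its call (-0.23, adjusted p = 0.013) was lost without B16-F1 replicate 1 and without either B16-F1R2 library, with adjusted p up to 0.088. The call of Parp1 (0.18, adjusted p = 0.036) was lost without any of the 4 libraries compared, with adjusted p up to 0.17. Enpp1 passed the filter only through B16-F1R2L. Its difference of 0.89 between B16-F1R2 and B16-F1 had an adjusted p of 0.033, but of 0.0574 without a filter. With a library left out the call held only without B16-F1 replicate 1, with adjusted p up to 0.12 without one of the others, and its difference was -0.68 under quantile scaling. Nmnat1 was not called (adjusted p = 0.79), and Nt5e, which makes nicotinamide riboside outside the cell, had at most 0.0202 FPKM in any library.

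Of the 12 polyamine genes, all tested, 6 were higher in B16-F1R2 relative to B16-F1, 2 lower and 4 not called. Odc1, the first enzyme of polyamine synthesis, rose from 118 and 119 FPKM to 155 and 153 FPKM, a log2 difference of 0.38 ± 0.04 (adjusted p = 0.00064, limma). In B16-F1R2L it was at 114 and 108 FPKM, lower than in B16-F1R2 by 0.47 on the log2 scale (adjusted p = 0.0032). The polyamine transporter Atp13a3 rose by 0.42 ± 0.06 in B16-F1R2 (adjusted p = 0.0018) and by 0.79 in B16-F1R2L against B16-F1 (adjusted p = 0.00013). Smox, spermine oxidase, rose by 0.42 in B16-F1R2 (adjusted p = 0.0069). The B16-F1R2 calls of Srm (0.47), Sat1 (-0.24) and Slc3a2 (-0.21) were each lost when 1 library was left out. It was B16-F1 replicate 1 or B16-F1R2 replicate 1 for Srm (adjusted p up to 0.052), either B16-F1 library or B16-F1R2 replicate 2 for Sat1 (up to 0.082) and B16-F1 replicate 1 for Slc3a2 (0.063). In B16-F1R2L against B16-F1, Sat1, the enzyme that acetylates spermidine and spermine, fell by 0.66 (adjusted p = 0.00019) and Slc3a2, a transporter subunit, rose by 0.57 (adjusted p = 0.00012).

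The libraries were of like depth, estimated at 12700000 to 15300000 reads. All 7 melanocyte markers (Mitf, Sox10, Dct, Tyr, Tyrp1, Pmel and Mlana) reached 1 FPKM in every line, and their summed level was 15000 FPKM in both B16-F1 libraries, 7910 to 8120 FPKM in B16-F1R2 and 8920 to 8930 FPKM in B16-F1R2L. All 7 lay lower in B16-F1R2, by log2 differences from -0.15 for Mitf to -3.70 for Tyr. In B16-F1R2L 6 of them did, down to -2.99 for Tyr, while Mitf was higher, at 112 and 127 FPKM against 92.3 and 88.7 FPKM. Of 4 leukocyte markers, Ptprc, Cd3e and Itgam were at 0 in all 6 libraries, while Cd79a moved with Slc12a8, from at most 0.0593 FPKM in B16-F1 to 12.7 and 12.4 FPKM in the lymph node variant and 17.1 and 15.9 FPKM in the lung variant. Summed fibroblast markers lay at 0.735 to 0.881, 1.21 to 1.29 and 1.86 to 2.31 FPKM in the 3 lines in the same order, with Dcn and Lum at 0. Endothelial markers summed to between 1.55 and 2.38 FPKM, with Cdh5, Kdr and Lyve1 at 0. Among them Pecam1 was listed at 0 in B16-F1 and had 0.758 and 0.752 FPKM in the lymph node variant and 1.09 and 1.26 FPKM in the lung variant, while Prox1 was highest in B16-F1, with means of 1.65, 0.88 and 1.14 FPKM in the 3 lines. Epithelial markers summed to between 0.281 and 0.578 FPKM. The part of the melanocyte markers, Cd79a and Pecam1 in the differences of the Slc12 genes was not tested.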

How the data were processed

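Polyadenylated RNA of 3 lines, 2 libraries each, was sequenced by the authors (single-end, 50 bases) and mapped to mm9 with TopHat (TopHat2 2.0.10 in the submitters' notes), allowing 2 mismatches and 20 positions for a read. The authors deposited 1 table of FPKM for all libraries, and compared lines with DESeq2. Cuffnorm is named without a role, and the annotation is not given in the sources used here. FPKM are not counts, so no count test was run and depth was estimated from the lowest FPKM of genes with 1 transcript.

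Groups came from the labels. From the FPKM, log2(FPKM + 0.1) was computed for genes that reached 1 FPKM in 2 or more libraries, and the lines were set against each other by limma 3.58.1 (R 4.3.3, trend on, all 6 libraries, no block, Benjamini-Hochberg threshold of 0.05). Such differences understate the change of low genes. Python 3.11.15 with pandas 2.3.3 and Biopython 1.88 served for the rest, and the fit was tested on simulated data. Positions came from the NCBIM37 annotation and promoters from RefSeq (GRCm38.p6). Genes, lists and alternatives were chosen with earlier results of these data known. Named were the Slc12 genes, the genes most like Slc12a8, its 10 neighbours, and from each list up to 3 called genes in each direction without overlap, plus Wnk1, Stk39, Oxsr1, Atp1b1, Lrrc8a, Clic1, Nampt, Nmnat1, Nt5e and Odc1. Some genes that these rules name are not reported here. A planned comparison of proteins was not made. Alternatives were other constants, filters and scalings, no trend, 4 libraries, a replicate block, and each library left out.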

Additional observations from a re-analysis of the deposited data

How the results depend on the processing

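The difference of Slc12a8 between B16-F1R2 and B16-F1 was 7.21, and became 4.12 with 1 FPKM added, 9.76 with 0.01 added, 7.74 with libraries rescaled to the same sum, 5.76 under quantile scaling, and 7.04 to 7.38 with a library left out. In B16-F1R2L against B16-F1, Slc12a7 kept its direction and call in all 17 alternatives (-0.43 to -0.29) and Slc12a5, which passed the 1 FPKM filter only through the variants, in 15 of 16, among them the fit without a filter. The count of Slc12 genes called higher went from 1 to 0 with the filter of 5 FPKM and under quantile scaling, and stayed at 1 to 1 with a library left out. The count called lower went from 2 to 1 without a filter, with the filter of 5 FPKM, rescaled, with 4 libraries, under the replicate block and with any library left out (1 to 1), each time by the loss of Slc12a9. The same count rose to 3 with libraries scaled by median ratios, where Slc12a4 joined, and under quantile scaling, where Slc12a2 joined. Between B16-F1R2L and B16-F1R2 none of the Slc12 genes tested was called under any alternative, and Slc12a8 was not tested.

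List genes called lower in B16-F1R2 against B16-F1 numbered 12 to 22 with a library left out. In B16-F1R2L against B16-F1 the lower list genes became 7 after rescaling and 7 to 14 with a library left out, and all genes called lower became 2043 after rescaling. Between the variants, 5 to 15 list genes were higher and 3 to 8 lower with a library left out. All genes called higher there became 2079 after rescaling, 874 with 4 libraries and 297 to 904 with a library left out, and all called lower became 743 without a filter, 489 rescaled, 650 without a trend, 644 with 4 libraries and 140 to 991 with a library left out. Rescaling moved the median of all genes to 0.118 in B16-F1R2L against B16-F1 and to 0.129 between the variants.

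Some differences turned direction: Enpp1 in B16-F1R2 to -0.68 and Lmln in B16-F1R2L to -0.38 under quantile scaling, Slc12a2 in B16-F1R2 against B16-F1 from 0.13 to -0.10 under quantile scaling, Slc12a2 in B16-F1R2L against B16-F1 to 0.03 after rescaling and 0.05 without B16-F1R2L replicate 1 (-0.18 to 0.05 over the libraries left out), and Slc12a4 between the variants to 0.03 after rescaling. Lmln, which was not called in B16-F1R2, was at -0.41 there under quantile scaling, and other differences that were not called, most of them near 0, also changed sign. The cause was not tested in any of these.

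The deviations of same-numbered libraries correlated only weakly between lines, at 0.0519, -0.102 and 0.0789 over 11379 genes. Since each line gave only 1 difference between replicates, these values cannot settle whether same-numbered libraries were handled together. The replicate block left 1 Slc12 gene called higher and 1 lower in B16-F1R2L against B16-F1. With the numbers of B16-F1R2L crossed, an alternative added after these correlations were seen, 1 was called higher and 3 lower, and 3171 and 2902 of all genes. Depth is known only as an estimate, and at it the B16-F1 level of Slc12a8 could not be told from a single read.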
